A study of Homo sapiens with 9 samples.

Results

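The SRF-type contractile cytoskeleton genes were followed here as 10 genes, ACTA2, ACTN1, TAGLN, CNN1, MYL9, TPM1, TPM2, CALD1, VCL and SRF, taken by symbol from the 57736 gene rows of an RNA-seq count table. They were measured in SKMEL-147, a human melanoma cell line, carrying Cas9 and a lentiviral guide RNA in 3 groups of 3 libraries each, A to C. The sgScr group received a non-targeting guide, and the sgPHF8-1 and sgPHF8-3 groups each received a different guide against PHF8, a histone lysine demethylase. All groups therefore shared the cell line, Cas9 and the viral vector, and each group was a transduced population, not a set of clones. The groups were compared to ask how these genes stood after loss of PHF8, and whether the 2 guides gave the same answer.

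Serum response factor (SRF) is a transcription factor that binds the CArG box, a short DNA element with an AT-rich core, in the control regions of cytoskeletal and immediate early genes. Its cofactors of the myocardin family (MRTF-A and MRTF-B in most cells) bind monomeric actin and are freed to enter the nucleus when actin is assembled into filaments. The genes that follow encode actin filaments, the proteins that bundle and coat them, the myosin regulatory light chain and the plaque proteins that tie filaments to adhesions. They are best known from smooth muscle and myofibroblasts, but many are also expressed in motile tumor cells.

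The proximal promoters of the genes differ in the element that gives the group its name. RefSeq windows of 300 bases, from 250 bases before to 50 bases after a transcript start (GRCh38.p14), covered 8 of the 10 genes with 17 windows; TAGLN and MYL9 had no entry. The CArG box was searched in its strict form, in which all inner bases are A or T, and in a relaxed form with 1 inner C or G; the element reads alike on both strands. The strict form lay in 1.29% of all 35116 windows, or in a window of 1.60% of all 27305 genes, and in a window of SRF and of ACTN1. The relaxed form lay in 6.94% of all windows, or in 8.46% of all genes, and in a window of ACTA2 and of CALD1. The windows below, written 5′ to 3′ on the gene's strand, show those matches in capitals, and the CNN1 window is given as the contrast in which neither form was found.
SRF, chr6:43171019-43171318, plus strand: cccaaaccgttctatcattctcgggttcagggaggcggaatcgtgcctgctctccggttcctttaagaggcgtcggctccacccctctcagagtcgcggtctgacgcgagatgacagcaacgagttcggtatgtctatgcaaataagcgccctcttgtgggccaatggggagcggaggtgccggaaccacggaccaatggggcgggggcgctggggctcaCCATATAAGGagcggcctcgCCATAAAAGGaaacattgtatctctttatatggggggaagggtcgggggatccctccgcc
ACTN1, chr14:68977517-68977816, minus strand: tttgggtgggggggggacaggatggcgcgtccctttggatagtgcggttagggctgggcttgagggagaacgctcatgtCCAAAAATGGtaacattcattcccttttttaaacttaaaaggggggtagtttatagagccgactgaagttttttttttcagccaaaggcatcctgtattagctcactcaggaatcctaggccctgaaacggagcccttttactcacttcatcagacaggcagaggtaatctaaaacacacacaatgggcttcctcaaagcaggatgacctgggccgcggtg
ACTA2, chr10:88952724-88953023, minus strand: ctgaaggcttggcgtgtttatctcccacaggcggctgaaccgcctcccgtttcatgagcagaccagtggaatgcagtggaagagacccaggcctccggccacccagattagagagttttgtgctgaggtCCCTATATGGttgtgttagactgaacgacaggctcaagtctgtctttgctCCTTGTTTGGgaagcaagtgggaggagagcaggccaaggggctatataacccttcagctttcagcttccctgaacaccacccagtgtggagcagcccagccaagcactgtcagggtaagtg
CALD1, chr7:134711249-134711548, plus strand: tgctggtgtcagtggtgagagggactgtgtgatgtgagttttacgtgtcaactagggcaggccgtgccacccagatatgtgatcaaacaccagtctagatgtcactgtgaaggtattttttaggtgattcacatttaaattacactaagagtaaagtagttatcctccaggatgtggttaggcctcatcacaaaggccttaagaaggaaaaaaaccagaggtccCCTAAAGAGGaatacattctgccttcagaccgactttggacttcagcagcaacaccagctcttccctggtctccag
CNN1, chr19:11538601-11538900, plus strand: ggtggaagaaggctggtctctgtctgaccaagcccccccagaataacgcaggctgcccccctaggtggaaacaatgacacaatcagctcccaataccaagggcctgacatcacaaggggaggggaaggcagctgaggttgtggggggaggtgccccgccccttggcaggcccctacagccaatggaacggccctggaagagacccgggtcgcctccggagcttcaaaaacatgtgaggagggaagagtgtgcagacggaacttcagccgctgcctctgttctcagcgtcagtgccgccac

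SRF held 2 strict boxes, at -30 to -21 and at -10 to -1 from the start, and ACTN1 held 1 at -171 to -162. ACTA2 held 2 relaxed boxes, at -121 to -112 and at -71 to -62, and CALD1 held 1 at -26 to -17. The MCAT motif CATTCC, searched on both strands, was in 14.0% of all windows, or in 16.7% of all genes, and in a window of 4 of the 8 genes, which have more windows per gene than genes at large, namely ACTA2, ACTN1, CALD1 and VCL; in ACTN1 it lay at -154 to -149, just downstream of the CArG box. These matches are letters within a short window, and binding of SRF was not measured.

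PHF8, the targeted gene, had 655, 606 and 634 normalized counts (reads divided by the library's size factor) in sgScr A, B and C, against 564, 571 and 565 in sgPHF8-1 and 400, 387 and 434 in sgPHF8-3. Its transcript was lower with both guides, with no overlap between any 2 groups, and lower with sgPHF8-3 than with sgPHF8-1. The paper reported efficient knockout with both guides in SKMEL-147 by Western blot, and mRNA does not measure this loss of protein. The log2 fold change was -0.16 (95% interval -0.27 to -0.05, adjusted p = 0.0253) for sgPHF8-1 and -0.63 (-0.75 to -0.52, adjusted p = 2.32e-11) for sgPHF8-3, by edgeR's quasi-likelihood test with Benjamini-Hochberg adjustment over 14614 genes, which gave all adjusted p-values that follow unless another tool is named. The first call was lost without sgScr A (0.119), sgScr C (0.0692), sgPHF8-1 A (0.0700) or sgPHF8-1 C (0.0539), and DESeq2 gave it an adjusted p of 0.117. Total counts were 17366120 to 19838142 per library; sgPHF8-1 B had the fewest genes with a count, 22427 against at least 23035 in the others. Of 9 melanocyte lineage markers, 6 had a mean under 10 normalized counts; SOX10 was expressed at a mean of 2771 normalized counts in sgScr, PAX3 at 456 and MITF at 253, whereas MLANA and TYR were at 0 in all 9 libraries. Smooth muscle markers other than SYNM were nearly absent, with MYH11, DES, LMOD1 and ACTG2 at means of at most 1.3 and MYOCD at 0 throughout.

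In sgScr cells the 10 genes spanned a wide range of levels. Scaled to annotated exon length and library total (RPKM), TPM2 was highest at 64.3 ± 0.199 (SD, n = 3), followed by ACTN1 at 48.4 ± 0.696, VCL at 47.9 ± 0.630, TPM1 at 38.9 ± 0.366 and CALD1 at 21.3 ± 0.574. SRF itself stood at 13.5 ± 0.312 RPKM and MYL9 at 8.71 ± 0.332 RPKM. The smooth muscle type members were the lowest, with TAGLN at 2.58 ± 0.0611, CNN1 at 0.896 ± 0.0434 and ACTA2 at 0.156 ± 0.0197 RPKM. Only the neighbors ACTN1 and VCL differed by less than their SDs combined, and this order depends on the exon length assigned to each gene. In sgPHF8-1 the mean RPKM of TPM2 was 71.3 and that of VCL was 40.7, within the SDs of TPM1 at 41.0.

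**Figure D1:**
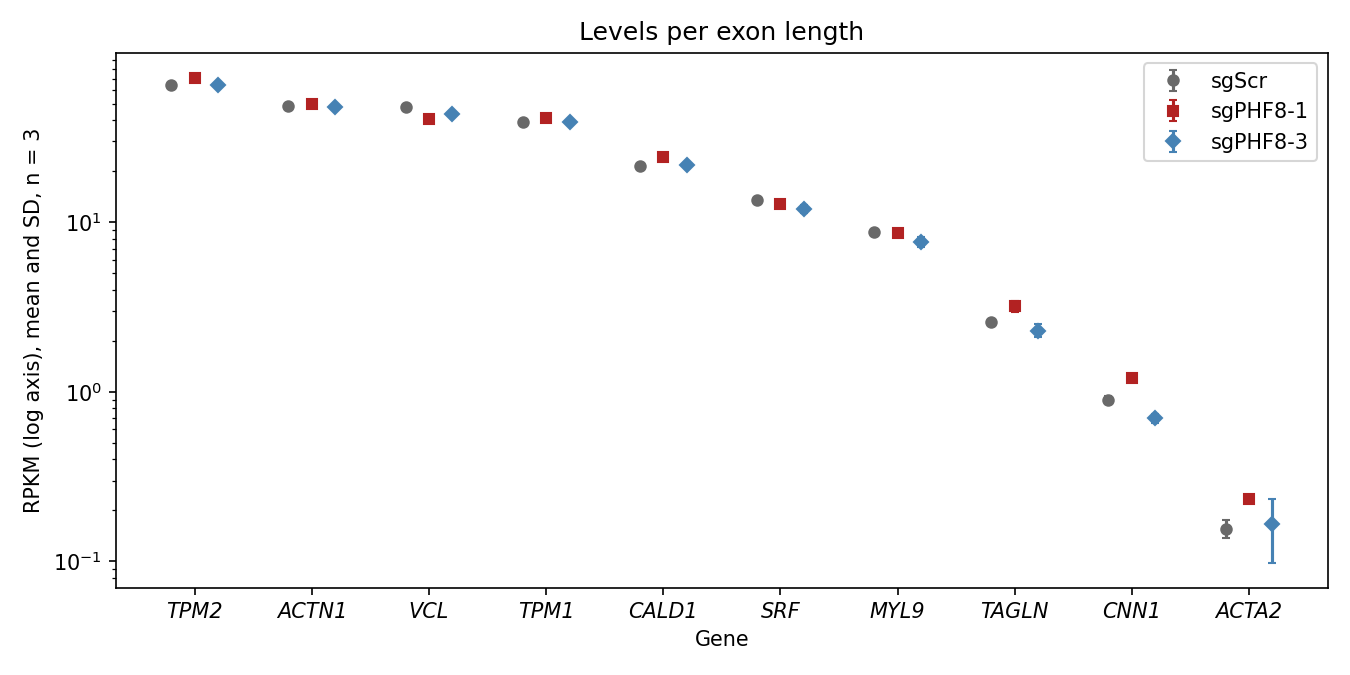
Level of each of the 10 genes in RPKM (vertical log axis; points are group means, bars are SD, n = 3 libraries) for sgScr, sgPHF8-1 and sgPHF8-3. Genes run from TPM2 at 64.3 RPKM in sgScr to ACTA2 at 0.156 RPKM, and the groups lie close together on this scale.

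With sgPHF8-1, 5 of the 10 genes rose (CNN1, TAGLN, CALD1, TPM2 and TPM1) and 1 fell (VCL), beside 15.5% of all genes tested called higher and 15.7% called lower. With sgPHF8-3 none of the 10 rose and 3 fell (MYL9, SRF and VCL), beside 9.89% of all genes called higher and 10.1% called lower; at an unadjusted p under 0.05 the count of higher genes was also 0, and DESeq2 and limma gave 0 too. The median log2 fold change of the 10 genes was 0.13 for sgPHF8-1 and -0.08 for sgPHF8-3, where the medians of all genes tested were 0.000282 and -0.000757. All 10 genes passed the filter on low counts. In bulk RNA, fewer cells of a type and less RNA per cell cannot be told apart. The 2 comparisons share the sgScr libraries, so the guides were also compared directly with each other.

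SRF, the regulator, was lower with sgPHF8-3. It had 1081, 1055 and 1034 normalized counts in sgScr, 1034, 1023 and 982 in sgPHF8-1, and 952, 979 and 877 in sgPHF8-3. The sgPHF8-3 libraries lay below all other libraries, while sgPHF8-1 and sgScr met at their edges. SRF (chromosome 6, 43139007 to 43149244, hg19, plus strand) changed by -0.17 with sgPHF8-3 (log2, 95% interval -0.26 to -0.08, adjusted p = 0.00403), and it stood at -0.06 with sgPHF8-1 (-0.15 to 0.03, adjusted p = 0.325). The difference between the guides, 0.11 (0.02 to 0.21), did not pass the test (adjusted p = 0.105).

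ACTA2, smooth muscle alpha-actin, had the fewest reads of the 10 genes. Its normalized counts were 18.6, 15.0 and 15.2 in sgScr, 24.7, 24.9 and 23.8 in sgPHF8-1, and 24.5, 10.2 and 16.9 in sgPHF8-3. All 3 sgPHF8-1 libraries lay above all 3 sgScr libraries, but the sgPHF8-3 libraries were spread over both ranges and below them. The fitted log2 change was 0.58 for sgPHF8-1 (0.02 to 1.15, adjusted p = 0.109) and 0.09 for sgPHF8-3 (-0.51 to 0.69, adjusted p = 0.877), from 10 to 25 reads per library. The unadjusted p for sgPHF8-1 was 0.0415, so the change did not pass the test once adjusted. ACTA2 (chromosome 10, 90694831 to 90751096, hg19, minus strand) overlaps FAS and ACTA2-AS1 on the opposite strand. FAS had mean normalized counts of 135, 186 and 167 in sgScr, sgPHF8-1 and sgPHF8-3, and the strand setting of the counting is not given in the sources used here, so reads of ACTA2 and of these genes may not be told apart. Its coding sequence is also close to that of the other actins, and how reads matching several genes were counted is not given either.

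TAGLN, which encodes transgelin (SM22), an actin-binding protein of contractile cells, rose with sgPHF8-1. It had 304, 314 and 319 normalized counts in sgScr, 366, 389 and 419 in sgPHF8-1, and 278, 304 and 253 in sgPHF8-3. Every sgPHF8-1 library was above every other library, and sgPHF8-3 touched the lower edge of sgScr. Its log2 fold change was 0.32 with sgPHF8-1 (0.18 to 0.47, adjusted p = 0.000439) and -0.16 with sgPHF8-3 (-0.32 to -0.01, adjusted p = 0.129). The guides differed by 0.49 (0.34 to 0.64, adjusted p = 8.16e-06). TAGLN (chromosome 11, 117070086 to 117078180, hg19, plus strand) overlaps PCSK7 on the opposite strand, whose mean normalized counts were 852, 879 and 828 in the same group order.

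CNN1, which encodes calponin 1, a filament-coating inhibitor of myosin's ATPase, had the largest fitted difference between the guides among the 10 genes. Its normalized counts were 46.5, 44.9 and 49.4 in sgScr, 63.2, 63.8 and 64.1 in sgPHF8-1, and 39.2, 34.9 and 35.9 in sgPHF8-3. The groups were ordered sgPHF8-1, sgScr, sgPHF8-3 with no overlap. The log2 fold change was 0.44 with sgPHF8-1 (0.12 to 0.76, adjusted p = 0.0311) and -0.35 with sgPHF8-3 (-0.72 to 0.01, adjusted p = 0.169), and the guides differed by 0.79 (0.45 to 1.14, adjusted p = 0.00127). The rise with sgPHF8-1 was lost when any 1 library of its groups was left out, with adjusted p = 0.0786, 0.1003 and 0.0506 without sgScr A, B and C and 0.0678, 0.0559 and 0.0665 without sgPHF8-1 A, B and C. The difference between the guides kept an adjusted p of at most 0.0116 in the 9 fits that left out 1 library. CNN1 lies on chromosome 19, 11649582 to 11661138 (hg19, plus strand).

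TPM1, TPM2 and CALD1 encode the coat of the thin filament, the tropomyosins and caldesmon, which set where myosin and other proteins can reach actin. TPM2 had 3775, 3800 and 3770 normalized counts in sgScr, 4234, 4321 and 4191 in sgPHF8-1, and 3872, 3777 and 3676 in sgPHF8-3. CALD1 had 3870, 3949 and 3740 in sgScr, 4390, 4549 and 4323 in sgPHF8-1, and 4067, 3790 and 3910 in sgPHF8-3. In both genes the sgPHF8-1 libraries stood above all others, and the sgPHF8-3 libraries overlapped sgScr. TPM2 rose by 0.17 (0.11 to 0.23, adjusted p = 2.61e-05) and CALD1 by 0.20 (0.13 to 0.26, adjusted p = 4.22e-06) on the log2 scale with sgPHF8-1. The corresponding values for sgPHF8-3 were -0.00 (-0.06 to 0.06, adjusted p = 0.968) and 0.03 (-0.04 to 0.09, adjusted p = 0.634). The guides differed by 0.17 in each gene, with adjusted p = 0.000112 for TPM2 and 0.000207 for CALD1. TPM2 lies on chromosome 9, 35681989 to 35690053 (minus strand), and CALD1 on chromosome 7, 134429003 to 134655480 (plus strand), both in hg19.

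TPM1, the more deeply covered tropomyosin, had 10590, 10644 and 10446 normalized counts in sgScr, 11126, 11511 and 11157 in sgPHF8-1, and 10611, 10474 and 10723 in sgPHF8-3. The sgPHF8-1 libraries were again the highest, by a narrow margin. The values on the log2 scale were 0.09 with sgPHF8-1 (0.04 to 0.15, adjusted p = 0.00960) and 0.01 with sgPHF8-3 (-0.05 to 0.06, adjusted p = 0.922). The call for sgPHF8-1 was lost without sgScr C (adjusted p = 0.0560). The difference between the guides, 0.09 (0.03 to 0.14, adjusted p = 0.0365), was lost without sgScr A, B or C (0.0656, 0.0590 and 0.0563), sgPHF8-1 A or B (0.0755 and 0.0525) or sgPHF8-3 A or B (0.0827 and 0.170). TPM1 (chromosome 15, 63334819 to 63364114, hg19, plus strand) produces many isoforms by alternative splicing, which gene counts do not separate.

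MYL9, the regulatory light chain whose phosphorylation switches on non-muscle and smooth muscle myosin, showed the reverse arrangement. It had 457, 465 and 432 normalized counts in sgScr, 454, 455 and 456 in sgPHF8-1, and 428, 371 and 400 in sgPHF8-3. The sgPHF8-3 libraries lay below the other groups, which overlapped each other. Its log2 fold change was -0.18 with sgPHF8-3 (-0.30 to -0.05, adjusted p = 0.0426) and 0.01 with sgPHF8-1 (-0.11 to 0.14, adjusted p = 0.917). The fall was lost without sgScr A (0.113), sgScr B (0.163), sgPHF8-3 B (0.2497) or sgPHF8-3 C (0.0806). The guides differed by 0.19 (0.06 to 0.32), with adjusted p = 0.0502, and by 0.24 with adjusted p = 0.0232 without sgPHF8-3 A. MYL9 lies on chromosome 20, 35169900 to 35179850 (hg19, plus strand).

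VCL and ACTN1 encode vinculin, which links talin to actin in adhesion plaques, and alpha-actinin 1, which cross-links filaments in stress fibers. VCL had 8681, 8908 and 8898 normalized counts in sgScr, 7573, 7553 and 7668 in sgPHF8-1, and 8120, 7866 and 8031 in sgPHF8-3. No 2 groups overlapped, and VCL was the only member that fell with both guides. The log2 fold change was -0.22 with sgPHF8-1 (-0.27 to -0.16, adjusted p = 8.07e-08) and -0.14 with sgPHF8-3 (-0.20 to -0.08, adjusted p = 0.000285), and both calls held in all 9 fits that left out 1 library. The difference between the guides was -0.08 (-0.13 to -0.02, adjusted p = 0.0852). VCL (chromosome 10, 75754951 to 75881121, hg19, plus strand) overlaps AP3M1 on the opposite strand, whose mean normalized counts were 1824, 1799 and 1771 in sgScr, sgPHF8-1 and sgPHF8-3.

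ACTN1 had 12819, 12986 and 12603 normalized counts in sgScr, 13174, 13309 and 13721 in sgPHF8-1, and 13108, 12490 and 12578 in sgPHF8-3. The sgPHF8-1 libraries stood just above the rest. Its log2 fold change was 0.07 with sgPHF8-1 (0.01 to 0.12, adjusted p = 0.0825) and -0.01 with sgPHF8-3 (-0.07 to 0.05, adjusted p = 0.876), and the guides differed by 0.07 (0.02 to 0.13, adjusted p = 0.0922). Without sgPHF8-1 B the first and the last of these passed the test (adjusted p = 0.0287 and 0.0329). ACTN1 lies on chromosome 14, 69340845 to 69446157 (hg19, minus strand).

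**Figure D2:**
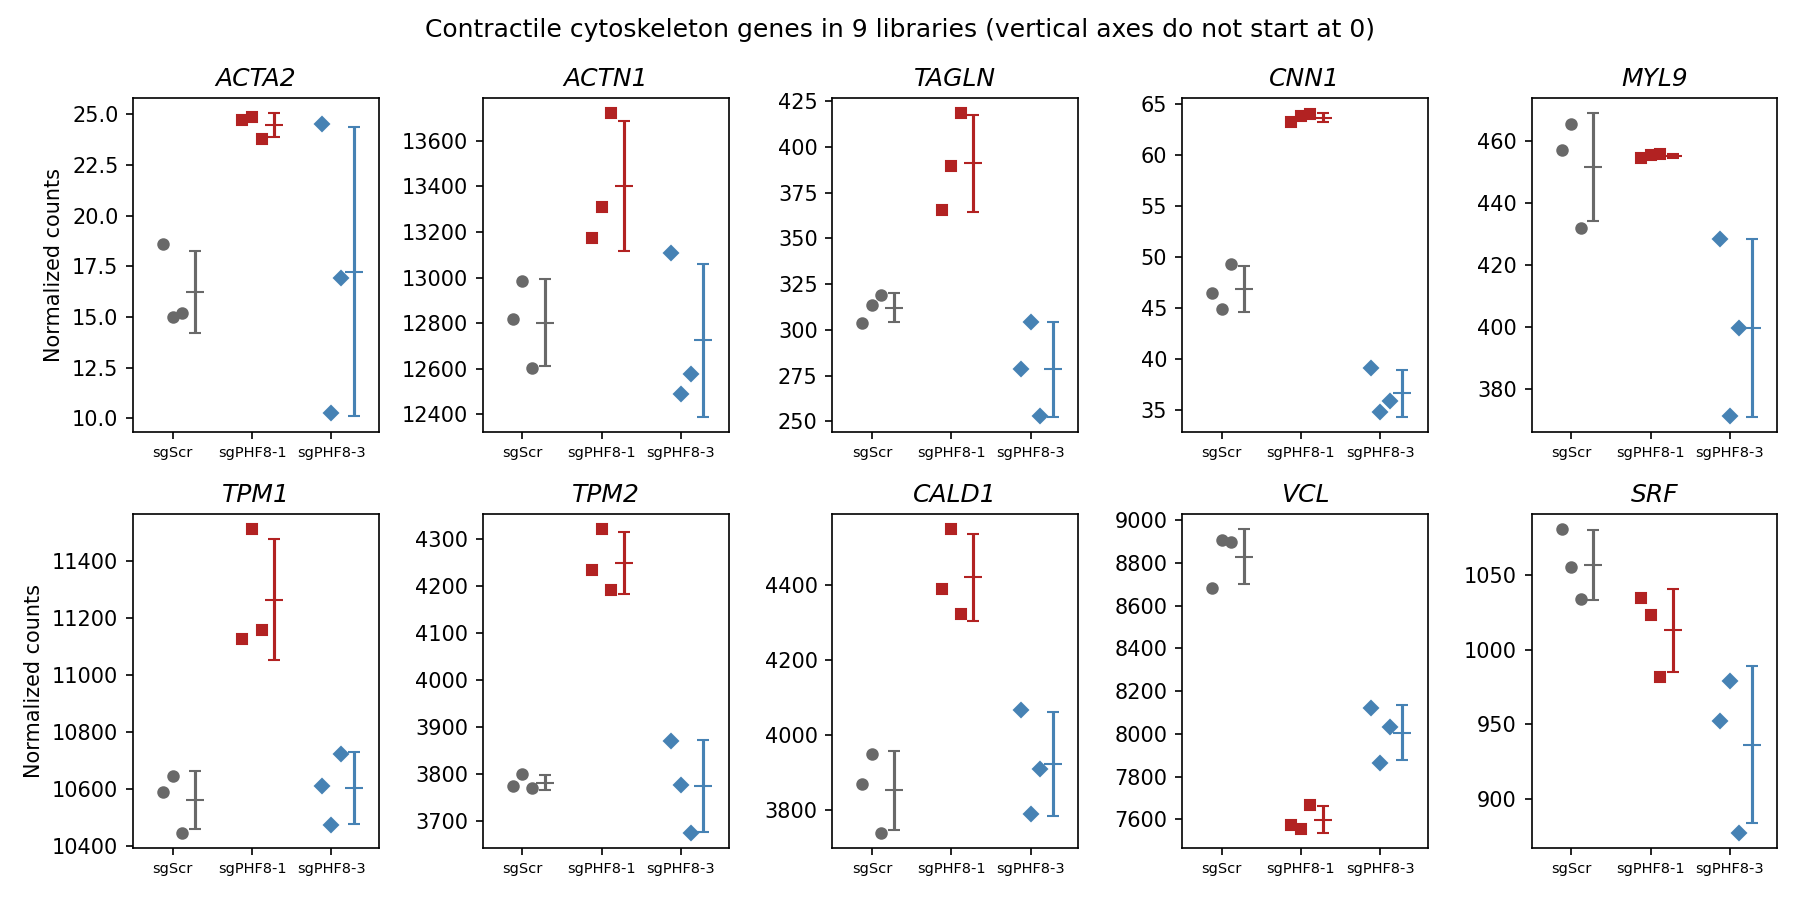
Normalized counts of the 10 genes in each of the 9 libraries (vertical axes do not start at 0; points are libraries A to C from left to right, and the bar beside them is the mean with its SD, n = 3). CNN1, TAGLN, CALD1, TPM2 and TPM1 are highest in sgPHF8-1, VCL is lower with both guides, and ACTA2 in sgPHF8-3 spreads from 10.2 to 24.5.

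Set directly against each other, the 2 guides differed in 5 of the 10 genes, TAGLN, CNN1, TPM1, TPM2 and CALD1, all higher with sgPHF8-1, beside 5.11% of all genes called higher and 6.06% called lower. No member was lower at this threshold; 1 gene, VCL, was lower at an unadjusted p under 0.05, and DESeq2 and limma called 0. For higher genes the counts were 8 at an unadjusted p under 0.05, 4 by DESeq2, which gave CNN1 no adjusted p, and 6 by limma. By range alone, 8 of the 10 genes were higher in all sgPHF8-1 libraries than in all sgPHF8-3 libraries and 1 was lower, where 12.4% of all genes were higher and 13.0% lower. Against sgScr, 7 genes lay wholly above it and 1 below it with sgPHF8-1, where the shares of all genes were 21.1% in each direction. With sgPHF8-3, 0 lay above and 4 below (CNN1, MYL9, VCL and SRF), where the shares were 18.7% and 17.8%. The median log2 difference of the 10 genes between the guides was 0.17. PHF8 itself was higher with sgPHF8-1 than with sgPHF8-3 by 0.48 (0.36 to 0.60, adjusted p = 1.73e-07).

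**Figure D3:**
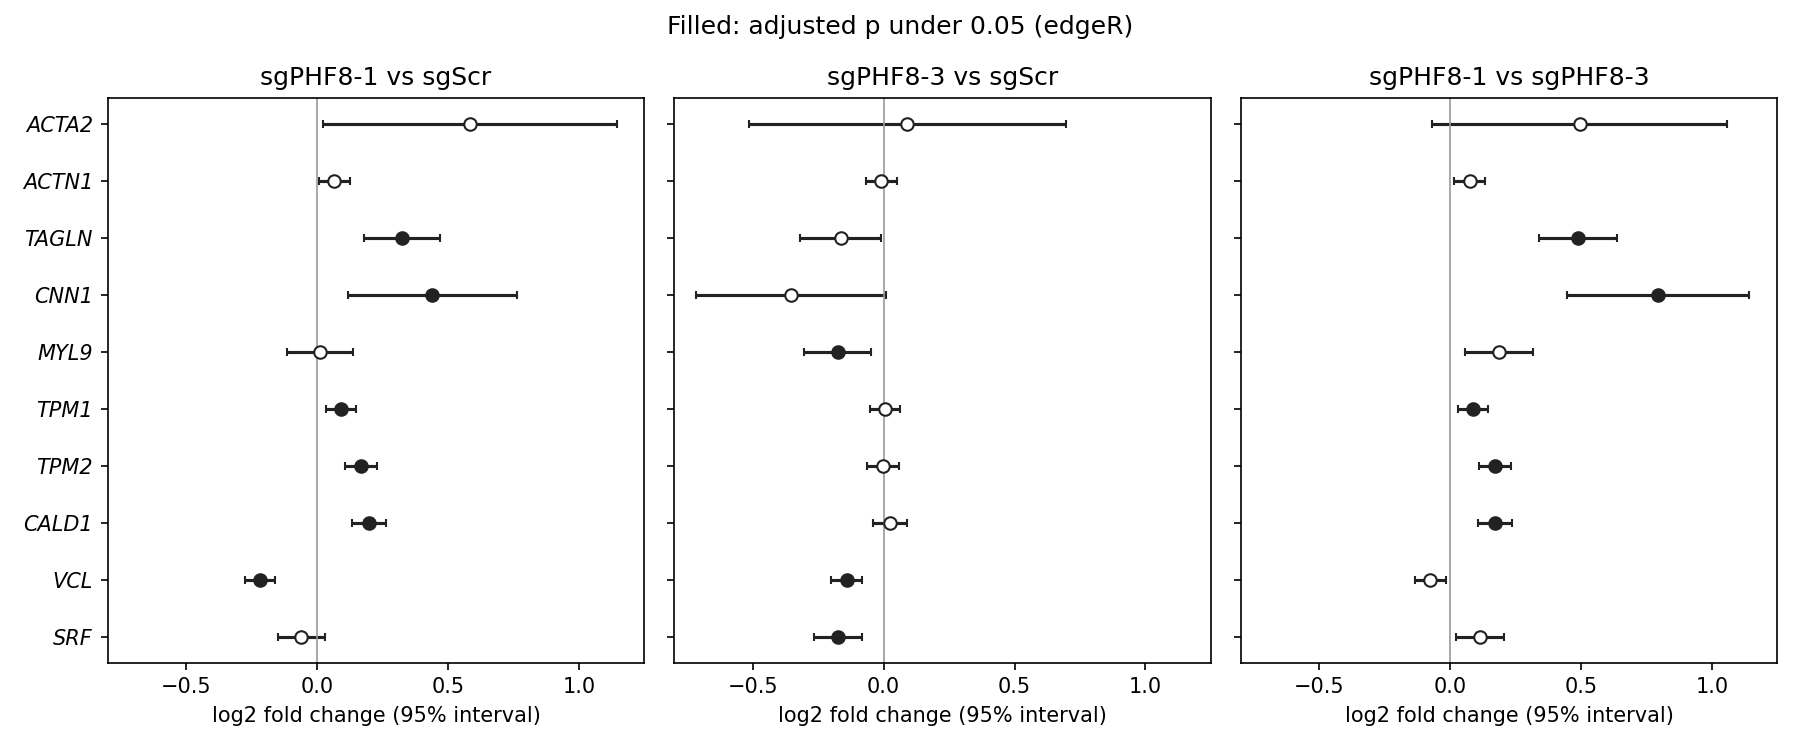
Log2 fold change (horizontal axis, with its 95% interval) of each of the 10 genes for sgPHF8-1 against sgScr, sgPHF8-3 against sgScr and sgPHF8-1 against sgPHF8-3; filled points have an adjusted p under 0.05. In the third panel 9 of the 10 genes lie to the right of 0, from 0.07 for ACTN1 to 0.79 for CNN1, and VCL lies to the left at -0.08.

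Averaged over both guides, 2 of the 10 genes rose and 2 fell, beside 15.1% of all genes called higher and 14.9% called lower. CALD1 rose by 0.11 (0.06 to 0.17, adjusted p = 0.00177) and TPM2 by 0.08 (0.03 to 0.14, adjusted p = 0.0147). VCL fell by 0.18 (adjusted p = 2.13e-07) and SRF by 0.12 (adjusted p = 0.0169). TPM2 was lost without sgScr A, B or C (0.0754, 0.0501 and 0.0624) or sgPHF8-3 A (0.0505), and SRF without sgScr A or B (0.0954 and 0.0554) or sgPHF8-3 C (0.0511). TAGLN and CNN1 had means on opposite sides of sgScr with the 2 guides, and their averaged values were 0.08 (-0.05 to 0.21) and 0.04 (-0.25 to 0.34).

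Across the 9 libraries the genes other than VCL and SRF tended to be high and low in the same libraries. Over their 28 pairs, Pearson's r of log2 CPM (counts scaled to the library total) had a median of 0.71 and ran from 0.43 to 0.94, with TPM2 and CALD1 highest. SRF did not follow them as closely, and its 8 pairs with these genes had a median r of 0.11, from -0.09 with TPM1 to 0.61 with MYL9. The 9 pairs with VCL had a median of -0.47, and VCL with CALD1 was lowest at -0.78. These values describe 9 libraries that share the 3 group differences above. Outside the 10 genes, the profile most like their mean standardized log2 CPM, among 9800 genes with a mean log2 CPM of at least 3, was that of TOLLIP (r = 0.956), followed by CORO1B (0.955), SRP14 (0.947), BTG2 (0.945) and FHL2 (0.944). TOLLIP encodes a Toll-interacting adaptor, CORO1B an actin-binding coronin, SRP14 a subunit of the signal recognition particle, BTG2 an antiproliferative factor and FHL2 a LIM-domain protein that can bind SRF. All 5 were higher with sgPHF8-1 than with sgPHF8-3, by 0.15 for SRP14 to 0.62 for BTG2 (adjusted p at most 0.00274). They were picked for following this profile, so the difference is no independent result.

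**Figure D4:**
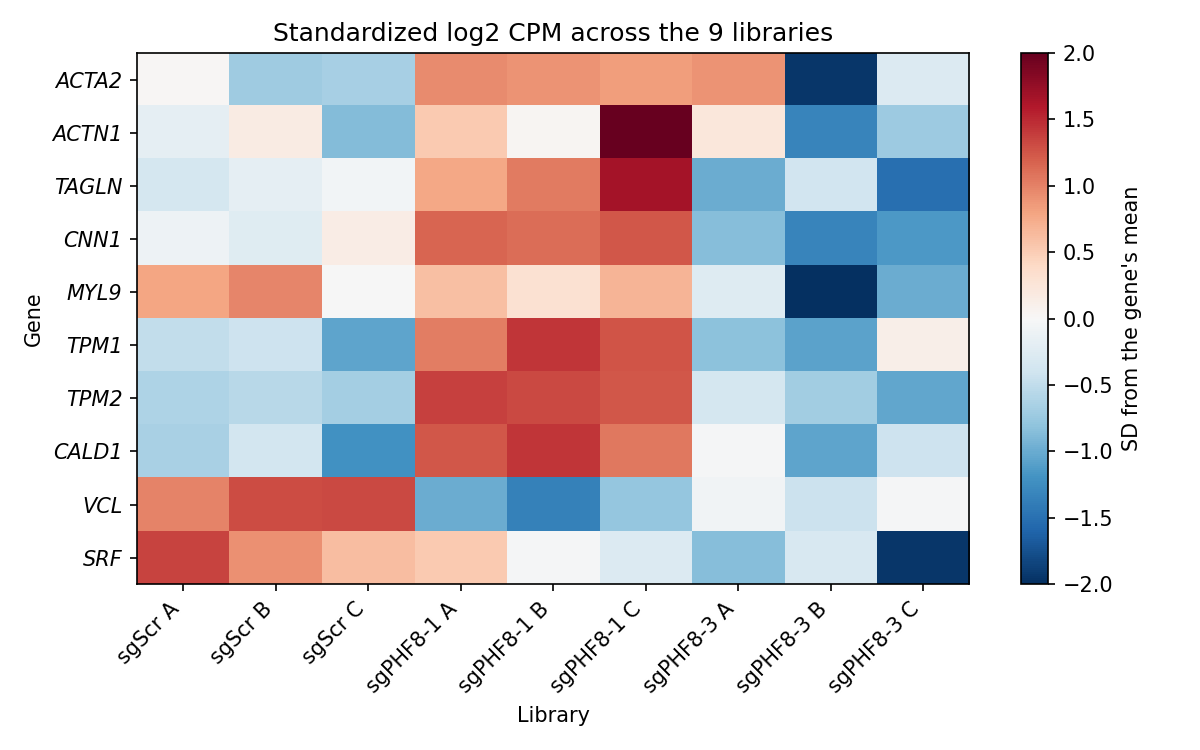
Standardized log2 CPM of the 10 genes (rows) in the 9 libraries (columns), as SDs from each gene's mean; red is higher and blue lower. The sgPHF8-1 columns are red for TAGLN, CNN1, TPM1, TPM2 and CALD1, and the sgScr columns are red for VCL and SRF.

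SRF acts through cofactors, and 7 of the 8 listed here were expressed, MYOCD being at 0 in all 9 libraries. With sgPHF8-1, 2 of the 7 rose and 3 fell, beside 15.5% and 15.7% of all genes. With sgPHF8-3, 0 rose and 1 fell, beside 9.89% and 10.1% of all genes. MRTFB, a myocardin-family coactivator, had 268, 275 and 255 normalized counts in sgScr, 208, 217 and 180 in sgPHF8-1, and 200, 204 and 267 in sgPHF8-3. Only sgPHF8-3 C reached the sgScr range. Its log2 fold change was -0.40 with sgPHF8-1 (adjusted p = 0.00100) and -0.25 with sgPHF8-3 (adjusted p = 0.0449), the latter lost without sgScr A, B or C, sgPHF8-1 A, or sgPHF8-3 A or B, with an adjusted p of up to 0.239, with a replicate block on the letters (0.0610), under DESeq2 (0.171) and under limma (0.0660). MRTFA, its paralog, had log2 fold changes of -0.17 with each guide (adjusted p = 0.0327 and 0.0542), the second passing with no filter (0.0269), with only the groups compared (0.0249) and without sgScr A, sgPHF8-1 A or B or sgPHF8-3 A (0.0126 to 0.0453). The ternary complex factors, ETS proteins that join SRF on immediate early genes, were mixed with sgPHF8-1, with ELK4 at -0.29 (adjusted p = 0.0182), ELK3 at 0.12 (adjusted p = 0.0112) and ELK1 at -0.06 (adjusted p = 0.330). With sgPHF8-3 they stood at -0.08, 0.07 and -0.08 (adjusted p = 0.519, 0.161 and 0.220), and ELK4 passed without sgPHF8-3 C (0.0138) and ELK3 without sgPHF8-3 A (0.0427). FHL2 rose by 0.10 with sgPHF8-1 (adjusted p = 0.0265) and stood at -0.08 with sgPHF8-3 (adjusted p = 0.0994). SCAI, a suppressor of MRTF-driven transcription, was at -0.13 and 0.09 (adjusted p = 0.127 and 0.365). The sgPHF8-1 call of MRTFA was lost without sgScr B or C or sgPHF8-1 B or C (adjusted p up to 0.200) or under DESeq2 (0.107), that of ELK4 without sgScr B or any sgPHF8-1 library (up to 0.0710) or with the block (0.0723), that of FHL2 without sgScr B or C or sgPHF8-1 A or B (up to 0.119), with no filter (0.0971) or under DESeq2 (0.0929), and that of ELK3 without sgScr C (0.0877).

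Of 25 other contractile and actin filament genes, 19 were tested, and 5 rose and 5 fell with sgPHF8-1, beside 15.5% and 15.7% of all genes, while 2 rose and 6 fell with sgPHF8-3, beside 9.89% and 10.1%. FLNC, the muscle-type filamin that cross-links actin, had 1148, 1161 and 1237 normalized counts in sgScr, 2011, 1809 and 2108 in sgPHF8-1, and 1357, 1380 and 1437 in sgPHF8-3. No group overlapped another, with sgPHF8-1 highest. FLNC rose by 0.74 with sgPHF8-1 (adjusted p = 1.56e-12) and by 0.23 with sgPHF8-3 (adjusted p = 0.000967). SMTN, smoothelin, rose by 0.34 and 0.21 (adjusted p = 1.75e-10 and 1.35e-05). ACTN4, the paralog of ACTN1, fell by 0.20 and 0.16 (adjusted p = 3.84e-07 and 6.01e-05). MYLK, the kinase that phosphorylates the light chain encoded by MYL9, fell by 0.36 and 0.11 (adjusted p = 1.96e-10 and 0.0290), the second being lost without sgScr A or C or sgPHF8-3 B or C (adjusted p up to 0.161), under DESeq2 (0.113) and under limma (0.0527). TGFB1I1 (Hic-5), an adhesion adaptor, was at -0.14 with sgPHF8-1 (adjusted p = 0.0768) and fell by 0.20 with sgPHF8-3 (adjusted p = 0.0168), a call lost without sgScr A or B or sgPHF8-3 B or C (up to 0.121) and under DESeq2 (0.0871).

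Of 19 focal adhesion genes 18 were tested, and 2 rose and 6 fell with sgPHF8-1, beside 15.5% and 15.7% of all genes, while 1 rose and 5 fell with sgPHF8-3, beside 9.89% and 10.1%; the list's median log2 fold change was -0.02 and -0.04. PARVA, a partner of integrin-linked kinase, fell by 0.28 and 0.18 (adjusted p = 7.66e-08 and 0.000452), and TNS3, a tensin, by 0.22 and 0.17 (adjusted p = 1.17e-06 and 0.000235). PDLIM7 and LIMS1, which encode LIM-domain adaptors, fell by 0.18 and 0.16 with sgPHF8-1 and by 0.21 and 0.16 with sgPHF8-3 (largest adjusted p = 0.00299); LIMS1 has near-identical copies with which it may share reads. ZYX, zyxin, was at 0.00 with sgPHF8-1 (adjusted p = 0.950) and fell by 0.21 with sgPHF8-3 (adjusted p = 0.000165). ITGAV, the integrin alpha-V subunit, rose by 0.19 and 0.09 (adjusted p = 6.34e-06 and 0.0437), the second being lost without sgScr A or C, sgPHF8-1 A or any sgPHF8-3 library (adjusted p up to 0.184), with the block (0.0514), with no filter (0.173), under DESeq2 (0.0981) and under limma (0.0561).

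The immediate early genes are the other class of SRF targets. Of 10 genes 9 were tested, with 2 higher and 2 lower for each guide, beside 15.5% and 15.7% of all genes for sgPHF8-1 and 9.89% and 10.1% for sgPHF8-3. FOS had 177, 165 and 101 normalized counts in sgScr, 113, 53.0 and 79.6 in sgPHF8-1, and 36.3, 30.7 and 40.2 in sgPHF8-3, and FOSB had 130, 165 and 101 in sgScr, 115, 79.0 and 100.2 in sgPHF8-1, and 38.2, 19.5 and 30.7 in sgPHF8-3. The sgPHF8-3 libraries were the lowest for both genes, and sgPHF8-1 overlapped sgScr. With sgPHF8-3, FOS fell by 2.04 (adjusted p = 0.00809) and FOSB fell by 2.15 (adjusted p = 1.30e-05), whereas the values for sgPHF8-1 were -0.84 (adjusted p = 0.0813) and -0.42 (adjusted p = 0.101). For sgPHF8-1, FOS passed the test without sgScr C (0.000334) or sgPHF8-1 A (0.00778), with no filter on low counts (2.46e-05), with the block (0.00922), under DESeq2 (0.0481) and under limma (0.00250), and FOSB passed without sgScr C (0.00556) and with no filter (0.00507). The guides differed in FOSB by 1.73 (adjusted p = 0.000469). The difference in FOS was 1.21 (0.22 to 2.20, adjusted p = 0.131), and it passed the test without sgScr C (0.00263) or sgPHF8-1 B (0.0310), with no filter (5.75e-05), with only the groups compared (0.00574), with the block (0.0192), under DESeq2 (0.0159) and under limma (0.000931). CCN1, a matricellular protein gene, rose by 0.12 and 0.26 (adjusted p = 0.0256 and 5.87e-05), the first being lost without sgScr B or C or sgPHF8-1 A or C (adjusted p up to 0.135) and with the block (0.0663). The other calls were EGR1 with sgPHF8-3 and MCL1, NR4A1 and JUNB with sgPHF8-1, named here after their values were seen. EGR1, a zinc-finger transcription factor gene, was at -0.15 with sgPHF8-1 and 0.65 with sgPHF8-3 (adjusted p = 0.667 and 0.0169). MCL1, a survival factor of the BCL2 family, was at 0.12 and 0.07 (adjusted p = 0.000644 and 0.0749). NR4A1, an orphan nuclear receptor, was at -0.38 and -0.14 (adjusted p = 0.0179 and 0.471), and JUNB, an AP-1 subunit, at -0.16 and -0.17 (adjusted p = 0.0495 and 0.0629).

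**Figure D5:**
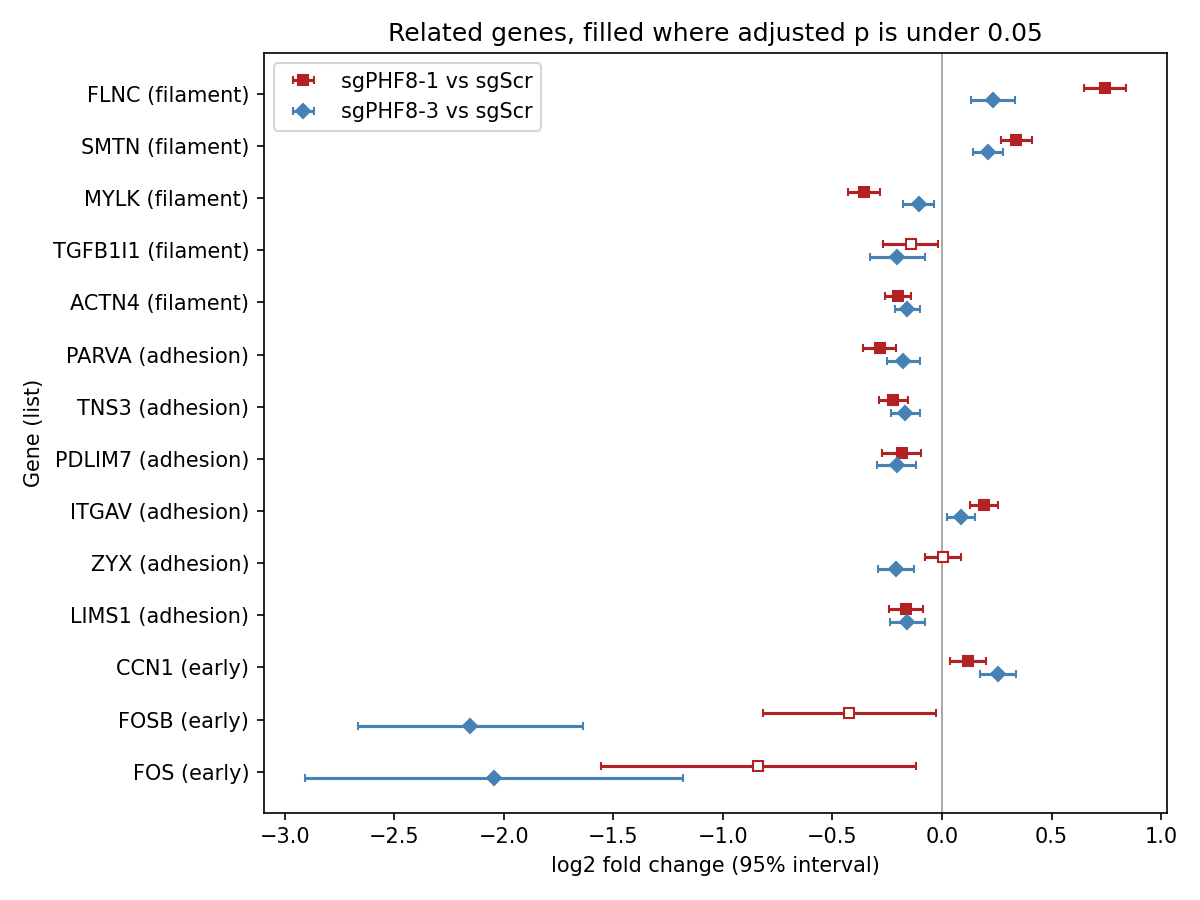
Log2 fold change (horizontal axis, with its 95% interval) of 14 genes named from the 3 related lists, for sgPHF8-1 (squares) and sgPHF8-3 (diamonds) against sgScr; filled symbols have an adjusted p under 0.05. FLNC and SMTN lie to the right for both guides, most adhesion genes lie to the left, and FOS and FOSB lie far to the left for sgPHF8-3.

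Markers of other cell types were measured beside these values. The summed normalized counts of 7 fibroblast and mural markers ranged from 392 to 432 in sgScr, 405 to 439 in sgPHF8-1 and 335 to 374 in sgPHF8-3, with 3 of the 7 at a mean under 10 and DCN at 0. Among them LUM made up most of the sum. LUM fell by 0.25 with sgPHF8-3 (adjusted p = 0.0183) and stood at 0.05 with sgPHF8-1 (adjusted p = 0.686). PDGFRB fell by 1.86 with sgPHF8-1 (adjusted p = 0.000466), at 12.2 to 19.5 normalized counts in sgScr and 2.07 to 7.57 in sgPHF8-1. COL1A1 had means of 72.5, 89.7 and 78.3 in sgScr, sgPHF8-1 and sgPHF8-3, and stood at 0.31 with sgPHF8-1 (adjusted p = 0.104). RGS5 stood at -0.25 with sgPHF8-1 (adjusted p = 0.638). Of the 4 tested, 0 rose and 1 fell with each guide. The shares of all genes were 15.5% and 15.7% for sgPHF8-1 and 9.89% and 10.1% for sgPHF8-3. The sum of 6 smooth muscle markers, nearly all of it SYNM, ranged from 262 to 315 in sgScr, 177 to 198 in sgPHF8-1 and 223 to 262 in sgPHF8-3. The sum of 4 epithelial markers ranged from 38.1 to 44.0 in sgScr, 13.4 to 28.1 in sgPHF8-1 and 18.0 to 29.7 in sgPHF8-3, and KRT14 among them fell by 1.10 and 0.90 with the guides (adjusted p = 0.000531 and 0.00534). Leukocyte sums reached at most 5.17 in any library. SOX10, the melanocyte lineage factor, fell by 0.18 and 0.11 (adjusted p = 1.74e-05 and 0.00831). With sgPHF8-1, PAX3 fell by 0.17 (adjusted p = 0.0407) and MITF stood at -0.14 (adjusted p = 0.208). Mean normalized counts of PAX3 and MITF in sgPHF8-3 were 407 and 279, against 456 and 253 in sgScr. Of the 3 lineage markers tested, 2 fell with sgPHF8-1 and 1 with sgPHF8-3, and 0 rose, beside the same shares of all genes. The part of these markers in the values of the 10 genes was not tested.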

How the data were processed

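RNA of 3 biological replicates per group was depleted of ribosomal RNA and sequenced as paired-end libraries. Per the labels, the processing notes name bcl2fastq, STAR, Picard, HTSeq, DESeq2 and the hg19 build; the annotation version and strand setting are not given in the sources used here. The authors deposited a table of read counts per Ensembl gene and a table of normalized signal per gene symbol. In the latter, 99.9% of nonzero values equalled the read count divided by 1 size factor per library (relative tolerance 1e-06), so whole reads were recovered and the test on counts served both tables. All 120 listed genes agreed between the tables; 55501 of 57736 IDs were paired with a symbol.

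Counts were fitted with edgeR 4.0.16 in R 4.3.3 (TMM, filterByExpr by group with its default minimum of 10 counts, robust quasi-likelihood test, 9 libraries, 6 residual degrees of freedom), and p-values were adjusted by Benjamini-Hochberg over 14614 genes, with 0.05 as the threshold. Alternatives used DESeq2 1.42.0, limma 3.58.1 on log2(value + 1) of the deposited normalized counts, other filters, samples and call rules, and left out each library in turn. RPKM used the union of GENCODE exons on hg19; promoter windows came from RefSeq (GRCh38.p14) and no coordinates were converted. Depth was 17366120 to 19838142 counts per library; p-values measure the spread among the 3 libraries of a group, and an interval on a low count is wide at this depth.

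The 10 genes and the related lists were chosen with earlier results of these data known. Genes named from each related list were up to 4 called in the same direction with both guides, by smallest adjusted p of the guide average, plus up to 2 more with the largest change among those called with either guide; all expressed SRF cofactors were named, as were the 5 genes most like the 10 by Pearson's r. Of the related lists, 1 list and 1 gene of another that the rule chose are not reported here. Same-letter libraries did not deviate together (r of deviations from -0.17 to 0.11), so letters were not treated as pairs. Between groups, libraries of different letters ran from -0.19 (sgPHF8-1 B with sgPHF8-3 C) to 0.26 (sgPHF8-1 B with sgPHF8-3 A). No 2 libraries of a group were duplicates: chi-square per degree of freedom between replicates ran from 1.32 to 3.85, highest between sgPHF8-1 B and C.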

Additional observations from a re-analysis of the deposited data

Results flagged for a closer look

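The 18 results below were singled out because the effect of sgPHF8-1 differed from that of sgPHF8-3 in a direct test of the 2 guides (edgeR's quasi-likelihood test, Benjamini-Hochberg adjustment over all genes); values are sgPHF8-1 minus sgPHF8-3 on the log2 scale, n = 3 libraries each. Among the 10 contractile genes these were CNN1 at 0.79 (adjusted p = 0.00127), TAGLN at 0.49 (8.16e-06), CALD1 at 0.17 (0.000207), TPM2 at 0.17 (0.000112) and TPM1 at 0.087 (0.0365). Among the cofactors they were FHL2 at 0.18 and SCAI at -0.22, and among the genes of most similar profile TOLLIP at 0.19, CORO1B at 0.17, SRP14 at 0.15 and BTG2 at 0.62. Those similar genes, FHL2 among them, were picked for following the same profile, so their difference is no independent result. The difference in SCAI (adjusted p = 0.0226) was lost without sgPHF8-1 A or B or sgPHF8-3 B or C (up to 0.171) and under DESeq2 (0.104), and that in TPM1 in 7 of the 9 fits that left out 1 library (up to 0.170).

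Among related genes the differences were FLNC at 0.51, SMTN at 0.13 and MYLK at -0.25 for filament genes, ITGAV at 0.10 and ZYX at 0.21 for adhesion genes, and CCN1 at -0.14 and FOSB at 1.73 for immediate early genes. The difference in SMTN was lost without sgPHF8-1 A or C or sgPHF8-3 C (adjusted p up to 0.108), that in ITGAV without sgPHF8-1 B or sgPHF8-3 A or B (up to 0.136), with no filter, under DESeq2 and with only the groups compared (up to 0.0625), and that in CCN1 without sgPHF8-1 A or B or sgPHF8-3 B or C (up to 0.132) and with a replicate block (0.0728). PHF8 mRNA also differed, being higher with sgPHF8-1 by 0.48, and the part of this difference in the others was not tested. Groups of 3 libraries are too small for a test of single outlying libraries.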

How the results depend on the processing

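The 10 genes gave 18 called and 22 uncalled results in the 4 comparisons. Of 269 repeats of the called results, 233 passed the test again in the same direction, 36 did not pass and 0 reversed; of 327 repeats of the uncalled results, 4 passed. Under DESeq2, 1686 genes were called for sgPHF8-3, 2870 for the guide average and 889 between the guides (2921, 4389 and 1632 with edgeR), and 1 member was lower for the average. A call rule in the study's methods (unadjusted p under 0.05 and log2 fold change beyond 0.25), 1 of several thresholds it states and applied here to edgeR's values, gave 2198, 1387, 1709 and 835 genes for sgPHF8-1, sgPHF8-3, the average and between the guides; members called were 3 higher (TAGLN, CNN1 and ACTA2) and 0 lower for sgPHF8-1, 0 lower for sgPHF8-3, 0 higher and 0 lower for the average, and 2 higher (TAGLN and CNN1) between the guides. With all 6 sgPHF8 libraries as 1 group, 0 members were higher and 1 was lower. With no filter on low counts, 1 member was higher for the average.

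Leaving out 1 library gave 3656 to 4699 genes for sgPHF8-1, 2042 to 3520 for sgPHF8-3, 3261 to 4505 for the average and 1022 to 1611 between the guides (1022 without sgPHF8-3 B, 1054 without sgPHF8-3 C). Members called higher then numbered 3 to 5 for sgPHF8-1, 4 to 5 between the guides and 1 to 2 for the average, and members called lower 2 to 3 for sgPHF8-3 and 1 to 2 for the average. The labels do not say whether the letters mark a pairing. With a replicate block on them, 4456, 2830, 4317 and 1601 genes were called in the 4 comparisons, and no call of the 10 genes changed. Of the other genes repeated, the block changed calls of MRTFB, ELK4, ITGAV, CCN1 and FOS, CCN1 and FOS also between the guides (0.0728 and 0.0192). The calls of EGR1, MCL1, NR4A1, JUNB and the cell type markers were not repeated under these alternatives. Under DESeq2 the calls of CNN1 (adjusted p = 0.161) and PHF8 (0.117) for sgPHF8-1, MYL9 for sgPHF8-3 (0.166) and SRF for the average (0.0839) were lost, and CNN1 had no adjusted p between the guides. With no filter those of CNN1 (0.0833), MYL9 (0.0598), TPM2 for the average (0.0763) and TPM1 between the guides (0.0862) were lost, the last also with only the groups compared (0.0997). With 1 sgPHF8 group the average lost CALD1 (0.107), TPM2 (0.195), SRF (0.0779) and PHF8 (0.0936). Under limma, MYL9 passed between the guides (0.0468). Depth limits ACTA2 and CNN1 most.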

Other observations

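Among the 10 genes the 3 libraries of a group in places agreed more closely than the counting error of their reads. In sgPHF8-1 the SD of the normalized counts was 0.139% of the mean for MYL9 and 0.673% for CNN1, where counting error for the mean read number is 4.76% and 12.7%. CNN1 also lay below its counting error in sgScr (4.79% against 14.1%) and sgPHF8-3 (6.17% against 16.7%), as did ACTA2 in sgPHF8-1 (2.45% against 20.6%). The fit shares its estimate of the spread across groups and, in part, across genes. Other values exceeded the counting error, such as ACTN1 in sgPHF8-3, with an SD of 2.63% against 0.895%, and ACTA2 in sgPHF8-3, with 41.4% against 24.3%.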
